A study of Mus musculus with 15 samples.

Results

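The mouse genes for the proteins of the mitochondrial ribosome were followed across kidney development. They were taken by name: every probe whose gene symbol begins with Mrpl (large subunit) or Mrps (small subunit) followed by a number, with the brightest probe standing for a gene that has several. This gave 104 probes for 76 genes, 48 of the large and 28 of the small subunit, out of 15967 named genes on the arrays. Of these, 69 (44 large, 25 small) were bright enough to be tested among 9529 genes. Mrpl2 and Mrps6 were not analysed here.

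The arrays are Illumina MouseRef-8 bead arrays, which read 1 labelled RNA sample each. RNA came from the kidney of BALB/c mice with no treatment at 3 ages: embryonic day 16 (E16d), postnatal day 1 (PN1d) and postnatal day 7 (PN7d), with 5 arrays for each age. The ages were chosen to compare the fetal kidney with that of the immediate and the early postnatal period. The study's methods speak of biological triplicates for the array work, while the labels give 5 samples an age, and the sources used here do not say which arrays, if any, share an animal, or whether a sample was 1 animal or a pool, so the tests weigh differences against the spread of these 5 arrays, which may be technical in part.

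The mitochondrial ribosome translates the few mRNAs that mitochondrial DNA encodes, all for subunits of the respiratory chain and the ATP synthase. Its RNAs come from mitochondrial DNA, while its proteins are encoded in the nucleus, made in the cytosol and imported. Some of the proteins have a counterpart in bacterial ribosomes and others are found only in mitochondria. The tubules of the mature kidney are rich in mitochondria, which power the transport of salt and solutes.

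Transcripts of the mitochondrial ribosome fell with age. At PN7d against E16d, 35 of the 69 tested genes were lower and 2 were higher at an adjusted p under 0.05, where 32.2% and 32.3% of all 9529 genes were lower and higher (64.5% in either direction). The shares among the 69 were 50.7% and 2.90%. The median change of the 69 was -0.17 on the log2 scale, against 0.0016 over all genes tested. At PN1d against E16d, 21 were lower and 4 higher (24.9% and 21.4% of all genes, 46.3% in either direction), with a median of -0.12 against -0.0157. From PN1d to PN7d, 18 were lower and 3 higher (21.2% and 24.1% of all genes, 45.4% in either direction), with a median of -0.10 against 0.0083. The 3 comparisons share arrays by pairs, so their counts are not independent.

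The promoters of the genes that changed most are shown first, because members of this group moved mostly in 1 direction and their control regions can be set side by side. They are, for each subunit, the genes with the largest falls and the largest rise past the test at PN7d against E16d that the promoter table holds. RefSeq promoters (GRCm38.p6, 250 bases before to 50 bases after the gene's start, read 5′ to 3′ on the gene's strand) were matched for 67 of the 76 genes. Capitals mark matches, on either strand, to 3 motifs. They are a spelling of the core of the NRF1 site, GCATGCGC, the ETS site bound by NRF-2 (GABP), CCGGAAG, and the YY1 site, AAGATGGCG. The letters of the motifs do not overlap in these windows. NRF1, NRF-2 and YY1 are factors known to bind promoters of many nuclear genes for mitochondrial proteins.
Mrps11, chr7:78782881-78783180, plus strand: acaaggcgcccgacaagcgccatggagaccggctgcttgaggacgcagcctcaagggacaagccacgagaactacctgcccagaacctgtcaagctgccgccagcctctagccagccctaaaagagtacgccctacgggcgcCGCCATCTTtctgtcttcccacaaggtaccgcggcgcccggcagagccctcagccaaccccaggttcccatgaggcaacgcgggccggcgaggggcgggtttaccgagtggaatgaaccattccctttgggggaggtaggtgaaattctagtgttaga
Mrpl53, chr6:83108858-83109157, plus strand: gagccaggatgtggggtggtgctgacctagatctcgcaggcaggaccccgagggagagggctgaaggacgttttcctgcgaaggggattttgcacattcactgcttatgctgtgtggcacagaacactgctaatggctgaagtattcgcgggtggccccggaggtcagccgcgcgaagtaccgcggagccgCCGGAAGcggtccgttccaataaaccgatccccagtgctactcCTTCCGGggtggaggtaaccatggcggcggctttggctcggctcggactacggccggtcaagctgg
Mrpl44, chr1:79775768-79776067, plus strand: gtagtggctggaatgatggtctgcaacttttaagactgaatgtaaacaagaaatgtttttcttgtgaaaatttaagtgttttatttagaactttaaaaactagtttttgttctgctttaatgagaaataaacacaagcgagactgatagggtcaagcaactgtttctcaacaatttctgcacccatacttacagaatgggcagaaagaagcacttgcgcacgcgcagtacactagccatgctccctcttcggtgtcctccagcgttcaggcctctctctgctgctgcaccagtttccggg
Mrps18b, chr17:35916391-35916690, minus strand: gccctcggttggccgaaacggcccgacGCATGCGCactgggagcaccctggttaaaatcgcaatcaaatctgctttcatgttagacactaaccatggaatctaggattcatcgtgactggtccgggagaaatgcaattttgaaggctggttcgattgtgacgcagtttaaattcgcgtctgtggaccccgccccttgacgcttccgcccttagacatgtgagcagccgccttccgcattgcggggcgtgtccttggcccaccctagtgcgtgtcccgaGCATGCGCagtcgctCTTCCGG
Mrps18a, chr17:46110754-46111053, plus strand: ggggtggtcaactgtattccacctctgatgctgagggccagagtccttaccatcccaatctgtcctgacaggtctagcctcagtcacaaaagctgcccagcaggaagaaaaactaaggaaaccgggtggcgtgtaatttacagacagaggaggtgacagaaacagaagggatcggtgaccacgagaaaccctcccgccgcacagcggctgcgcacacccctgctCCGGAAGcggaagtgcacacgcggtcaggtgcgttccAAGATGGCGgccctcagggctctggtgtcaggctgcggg
Mrps18b held NRF1 letters in 2 places and an ETS match on the opposite strand. Mrpl53 held the ETS letters in both orientations, Mrps11 a YY1 match on the opposite strand, and Mrps18a an ETS and a YY1 match. None of the 3 was found with its exact letters in the window of Mrpl44. That window holds gcacgcgc, with c in place of the t of the NRF1 letters, which the search did not count.

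Over all 67 matched genes, 26 (38.8%) held the ETS letters, against 8.86% of all 32851 promoters in the table and 19% of the 7717 tested genes with a promoter. NRF1 letters were in 8 (11.9%, against 2.71% and 5.73%) and YY1 letters in 8 (11.9%, against 1.4% and 3.47%), while 31 held none of the 3. Among matched genes that were lower at PN7d than at E16d, 8 of 31 held the ETS letters, against 15 of 28 matched genes with no call. NRF1 letters were in 5 of these 31 and 2 of these 28, and YY1 letters in 3 and 4. These are matches of the exact letters, with no variant spelling of a motif counted, and not measured sites. Promoters of Mrpl4, Mrpl13, Mrpl15, Mrpl19, Mrpl38, Mrpl54, Mrps28, Mrps34 and Mrps35 are not shown.

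The medians of both subunits moved in the same direction. At PN7d against E16d, 24 of 44 large-subunit genes were lower and 0 higher, with a median of -0.20. Of 25 small-subunit genes, 11 were lower and 2 higher, with a median of -0.15. The shares lower were 54.5% and 44%, against 32.2% of all genes, and the shares higher 0% and 8%, against 32.3%. At PN1d against E16d, 16 large-subunit genes were lower and 1 higher (median -0.16), and 5 small-subunit genes were lower and 3 higher (median -0.11). The shares lower were 36.4% and 20%, against 24.9% of all genes, so that of the small subunit was below the background. The shares higher were 2.3% and 12%, against 21.4%. The 16 became 10 without PN1d replicate 3, and the 5 became 3 without E16d replicate 5. From PN1d to PN7d, 11 large-subunit and 7 small-subunit genes were lower, and 2 and 1 higher. The shares lower, 25% and 28%, were near the 21.2% of all genes, and the shares higher were 4.5% and 4%, against 24.1%. Without PN7d replicate 3 the 11 and 7 became 6 and 4, without PN7d replicate 4 they became 7 and 4, and without PN1d replicate 1 the 7 became 4. The plot of fold changes gives each tested gene.

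**Figure D1:**
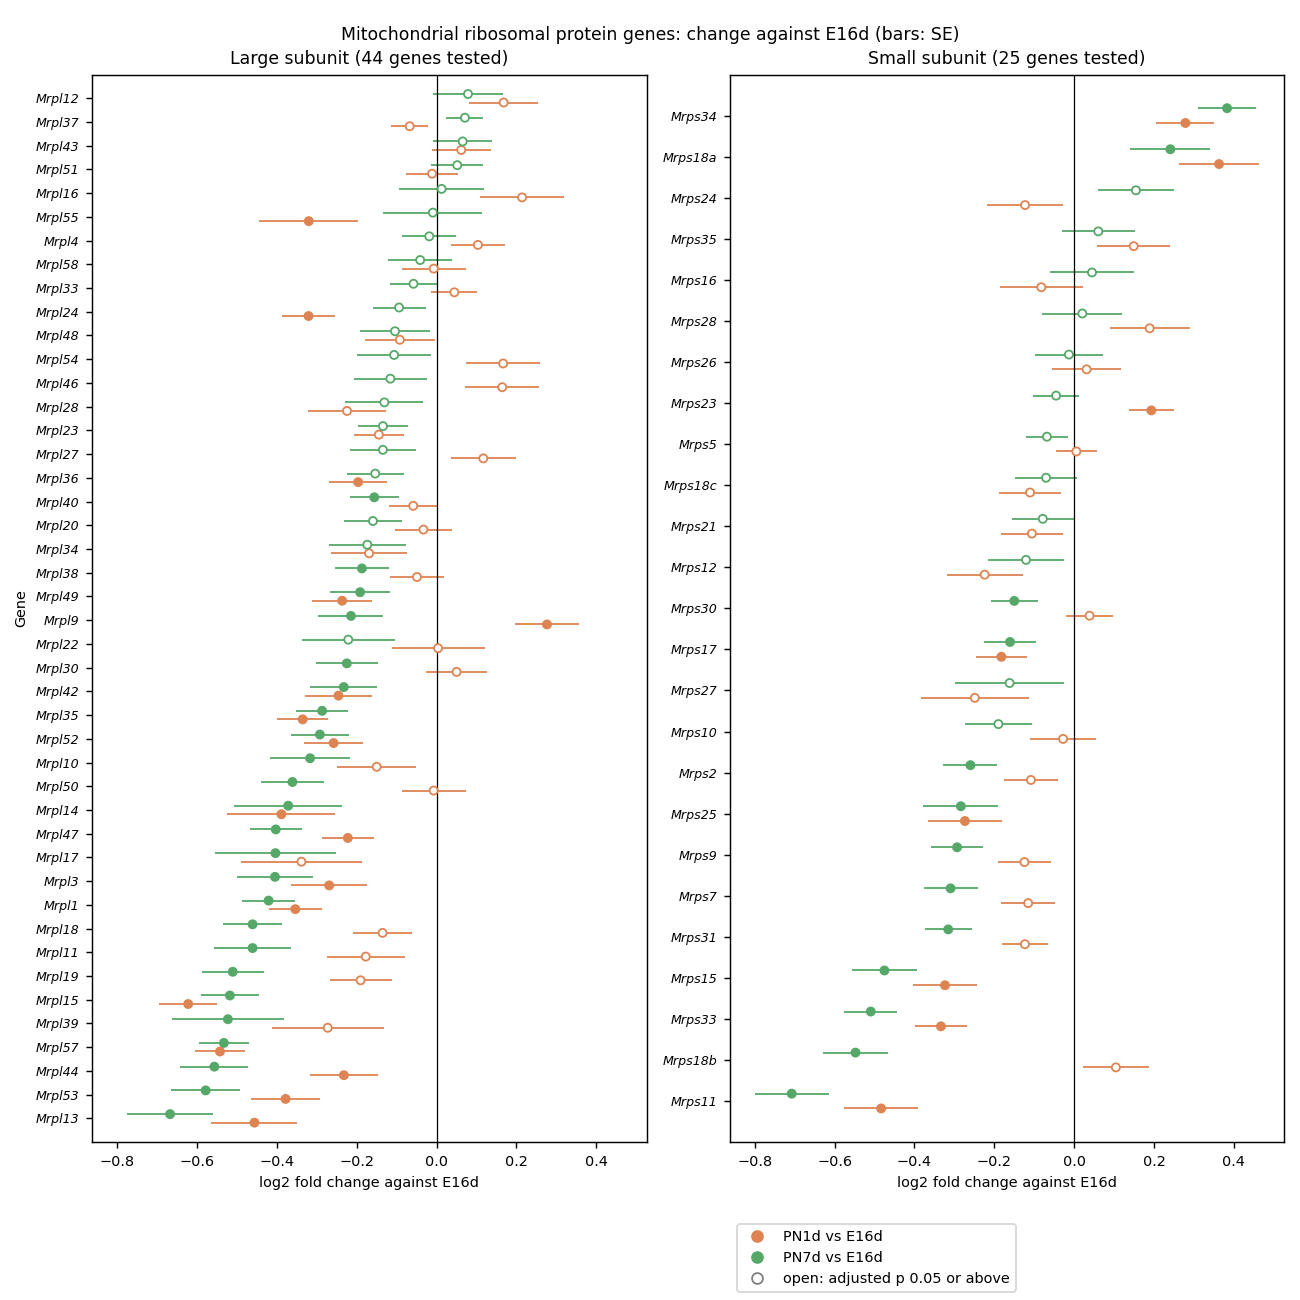
Log2 fold change against E16d of the 44 large-subunit (left) and 25 small-subunit genes (right) at PN1d (orange) and PN7d (green), with bars for the standard error and filled points for an adjusted p under 0.05. Most green points lie left of 0, and the only filled green points to the right are Mrps34 and Mrps18a.

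The array's mean over the tested genes of a subunit was set against the mean of the E16d arrays. For the large subunit these values lay between -0.06 and 0.06 at E16d, -0.19 and -0.06 at PN1d, and -0.39 and -0.10 at PN7d. For the small subunit they lay between -0.05 and 0.04, -0.12 and 0.04, and -0.29 and 0.0020. The change of the large subunit minus that of the small subunit was -0.02 to 0.02 on the E16d arrays, -0.10 to -0.02 on the PN1d arrays and -0.11 to -0.06 on the PN7d arrays. On each postnatal array the large subunit thus stood lower against E16d than the small subunit. No postnatal array overlapped an E16d array, but PN1d replicate 2, at -0.0237, lay next to E16d replicate 5, at -0.0213. Some gene names do not follow structure: in the mammalian ribosome the products of Mrps30 and Mrps18a sit in the large subunit. With these placed there, the same difference was -0.03 to 0.03 at E16d, -0.06 to 0.01 at PN1d and -0.09 to -0.02 at PN7d, and the ages overlapped. A score over named members carries no test here.

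The 5 PN7d arrays differed more among themselves than those of the other ages. The array mean over all 69 genes had an SD of 0.040 and 0.052 at the first 2 ages and 0.13 at PN7d. Against the E16d mean, PN7d replicates 1 and 2 stood at -0.09 and -0.07, replicate 5 at -0.21, and replicates 3 and 4 at -0.34 and -0.35. PN7d replicates 3 and 4 also had the lowest rises of respiratory chain genes, 0.15 and 0.13, against 0.29 to 0.33 on the other PN7d arrays. The count of 35 genes lower at PN7d than at E16d was 26 without PN7d replicate 3 and 27 without replicate 4. The 18 genes lower at PN7d than at PN1d became 10 and 11.

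**Figure D2:**
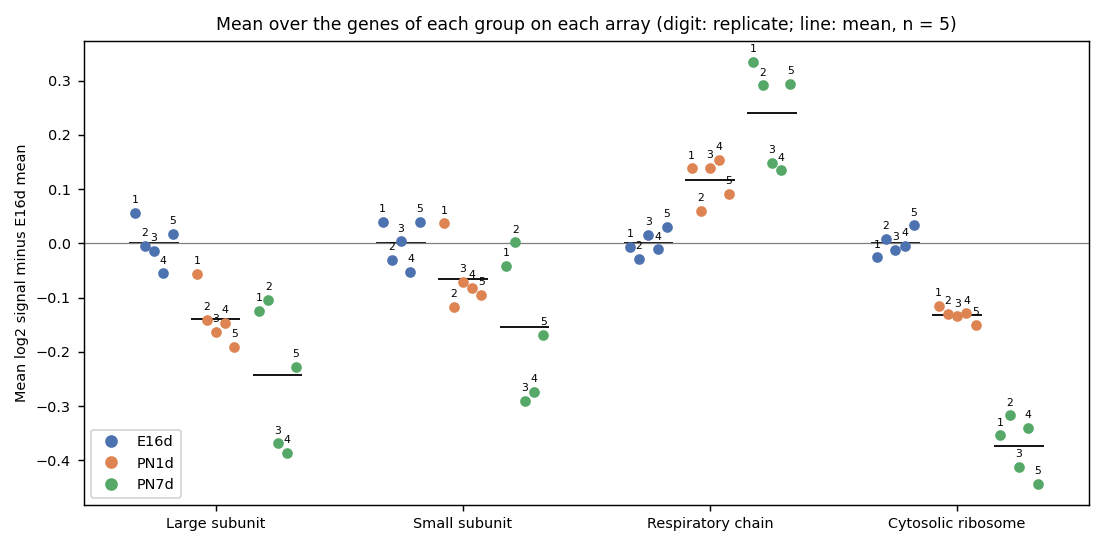
Mean log2 signal over the tested genes of each group on each array, minus the mean of the 5 E16d arrays. Digits give the replicate and lines the mean of an age. Both subunits and the cytosolic ribosome lie lower after birth while the respiratory chain lies higher, and among the PN7d arrays replicates 3 and 4 are the lowest for both subunits and the respiratory chain.

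Other cell types changed with age in these samples. The mean intensity of the adipocyte markers Ucp1, Cidea, Cox8b and Adipoq ran from 60.7 to 63.0 over the E16d arrays and from 59.8 to 63.3 over the PN1d arrays, but from 154.6 to 1782 over the PN7d arrays. Of 8 adipocyte markers, 6 were tested and all 6 were higher at PN7d than at E16d, while Fabp4 and Plin1 lay at or below the filter at each age. The mean log2 signal of the 8 on PN7d replicates 1 to 5 was 9.17, 7.35, 8.13, 8.61 and 8.57, beside ribosomal means of -0.09, -0.07, -0.34, -0.35 and -0.21 against E16d. The orders were not alike: replicate 2, with the least adipocyte signal, had the highest ribosomal mean of the 5, but replicate 1, with the most, came next to it. With this marker intensity as a covariate, 26 of the 69 genes were lower and 1 higher at PN7d than at E16d (26.6% and 26.7% of all genes), and 8 were lower and 1 higher at PN7d than at PN1d (14.6% and 16.7%). The medians of the 69 in these 2 comparisons were -0.175 and -0.124 with the covariate, against -0.173 and -0.102 without it. At PN1d these 4 markers had no call against E16d, and the counts were 21 and 4 with or without the covariate. The covariate hardly varied over the E16d and PN1d arrays, so it could not have moved these counts much. Lpl (0.91) and Cox7a1 (0.69), on the adipocyte list but not in the covariate, were higher at PN1d.

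Liver markers (4 of 5 tested) were higher at PN1d than at E16d, though Alb and Fgb lay at or below the filter. The mean log2 signal of the liver list ran from 6.76 to 8.99 over the PN1d arrays, with the highest on replicate 2. Over the E16d arrays it ran from 6.46 to 6.93, so the ages overlapped. Erythroid markers were lower at PN1d in 2 of 3. All 4 tested markers of dividing cells fell at both steps, and their mean log2 signal went from 9.78 through 9.04 to 7.96 over the 3 ages. Of 3 muscle markers 1 was higher at PN7d than at E16d, and the 1 adrenal marker tested had no call. Kidney markers matched the label: 3 of 3 proximal tubule genes were higher and 2 of 2 nephron progenitor genes lower at both postnatal ages than at E16d. The part of other cells in the changes of the ribosomal genes was not tested beyond the covariate. In bulk RNA, fewer cells of a type and less RNA per cell cannot be told apart.

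Mrps11 had the largest fall. It encodes the counterpart of bacterial S11, a protein beside the path of the mRNA on the small subunit. Its log2 signal on the 5 E16d arrays was 9.93, 9.64, 9.65, 9.43 and 9.76. The PN1d arrays gave 9.37, 9.15, 9.10, 9.10 and 9.26, and the PN7d arrays 9.08, 9.21, 8.82, 8.85 and 8.91. All postnatal arrays lay below all E16d arrays. Mrps11 fell by 0.48 (SE 0.092, adjusted p = 0.000404, limma) at PN1d and by 0.71 (adjusted p = 4.3e-06) at PN7d, when it was 1.63-fold lower than at E16d. A second, dimmer probe of Mrps11 changed by -0.30 (adjusted p = 0.0293) and -0.22 (adjusted p = 0.0864). With the mean of its probes the fall of Mrps11 at PN7d was -0.46.

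Mrpl13, the counterpart of bacterial L13, had the largest fall of the large subunit. Its E16d arrays read 9.98, 10.16, 10.30, 10.36 and 10.64. Its PN1d arrays read 9.80, 9.69, 9.82, 9.94 and 9.91 and its PN7d arrays 9.66, 9.73, 9.40, 9.46 and 9.85, all below the E16d arrays. It fell by 0.67 (SE 0.11, adjusted p = 4.13e-05) at PN7d, or 1.59-fold, and its second probe fell by 0.36 (adjusted p = 0.00315).

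A set of genes was called lower at the first step, E16d to PN1d, and not at the second. Mrpl15, the counterpart of bacterial L15, read 7.50, 7.19, 7.30, 7.23 and 7.31 at E16d and 6.63, 6.81, 6.71, 6.71 and 6.56 at PN1d. At PN7d it read 7.01, 6.78, 6.69, 6.65 and 6.81. It fell by 0.62 (SE 0.072, adjusted p = 3.22e-06) at PN1d and stood at -0.52 against E16d at PN7d, with no array of either age reaching the E16d range. Mrpl57, a protein found only in mitochondrial ribosomes, fell by 0.54 (adjusted p = 2.67e-06) at PN1d and stood at -0.53 at PN7d. Its E16d arrays lay between 6.74 and 6.97 and its postnatal arrays between 6.18 and 6.42, close to the filter at 6.22. With background correction (normexp) the changes of Mrpl57 were -0.87 and -0.85. In all, 17 of the 69 genes, against 12.2% of all genes tested, were lower at PN1d and had no call from PN1d to PN7d: Mrpl1, Mrpl3, Mrpl13, Mrpl14, Mrpl15, Mrpl35, Mrpl36, Mrpl42, Mrpl49, Mrpl52, Mrpl53, Mrpl55, Mrpl57, Mrps11, Mrps15, Mrps17 and Mrps25. Of these, 13 are of the large and 4 of the small subunit. The PN1d call of 7 of the 17 was lost on leaving out some array: 6 of them, Mrpl3, Mrpl14, Mrpl36, Mrpl42, Mrpl55 and Mrps17, without PN1d replicate 3, and Mrps25 without E16d replicate 4 or 5 or PN1d replicate 1. Without E16d replicate 3 or PN1d replicate 5, 5 of them were lost (Mrpl3, Mrpl14, Mrpl36, Mrpl55 and Mrps17), and each other E16d or PN1d array ended 2 to 4 calls. The call of Mrpl55 was lost in 11 of the 15 fits without 1 array. The second probe of Mrpl3 had its call at the later step instead, at -0.22 (adjusted p = 0.0708) to PN1d and -0.49 (adjusted p = 0.000554) from there to PN7d.

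For 13 other genes, 8 of the large and 5 of the small subunit and against 8.2% of all genes tested, the fall was called only at the second step, between PN1d and PN7d. They are Mrpl11, Mrpl18, Mrpl19, Mrpl27, Mrpl30, Mrpl46, Mrpl50, Mrpl54, Mrps7, Mrps9, Mrps18b, Mrps30 and Mrps31. Without PN7d replicate 3 the calls of 6 of them, Mrpl11, Mrpl27, Mrpl46, Mrpl54, Mrps7 and Mrps9, were lost. Without PN7d replicate 4 the same genes but Mrpl27 were lost, and without PN1d replicate 1 the same genes but Mrpl54. PN1d replicate 4 (Mrpl54, Mrps7 and Mrps9), PN7d replicate 5 (Mrpl11, Mrpl54 and Mrps9) and PN1d replicate 3 (Mrps7 and Mrps9) each ended 3 or 2 calls. Mrps9 (adjusted p = 0.0456) was lost in 10 of the 15 fits without 1 array. With the adipocyte covariate the calls of Mrpl11, Mrpl30, Mrpl46, Mrpl54, Mrps7, Mrps30 and Mrps31 were lost. With the methods' t-test those of Mrpl11, Mrpl27, Mrpl30, Mrpl46, Mrpl54, Mrps7, Mrps9 and Mrps30 were lost. Mrps18b had the largest fall of the 13 at this step. It read 8.30, 8.17, 8.25, 8.16 and 8.45 at E16d and 8.57, 8.24, 8.35, 8.37 and 8.33 at PN1d, and these arrays overlapped. At PN7d it read 7.84, 7.62, 7.63, 7.55 and 7.95, below every earlier array. The change was 0.10 (adjusted p = 0.324) at PN1d, and the gene then fell by 0.65 (SE 0.082, adjusted p = 1e-05), or 1.57-fold, by PN7d. Mrpl50, found only in mitochondria, had a change of -0.01 at PN1d and fell by 0.35 (adjusted p = 0.00189) afterwards.

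Other falls differed in how far the ages were apart. Mrps33, a small-subunit protein found only in mitochondria, read 11.66, 11.54, 11.72, 11.56 and 11.66 at E16d and 11.44, 11.35, 11.11, 11.38 and 11.20 at PN1d. At PN7d it read 11.21, 11.21, 11.06, 11.02 and 11.11. Both postnatal ages lay below E16d, with a change of -0.51 (SE 0.066, adjusted p = 3.81e-06) at PN7d. Mrps15, the counterpart of bacterial S15, read 9.43 to 9.76 at E16d, 9.09 to 9.27 at PN1d and 8.86 to 9.28 at PN7d, and fell by 0.48 (adjusted p = 6.86e-05) by PN7d. Mrpl1, the counterpart of bacterial L1, fell by 0.35 (adjusted p = 0.000365) at PN1d and by 0.42 (adjusted p = 3.58e-05) at PN7d, but with the mean of its probes the changes of Mrpl1 were -0.16 and -0.21. For Mrps15 and Mrpl1, too, all postnatal arrays lay below all E16d arrays.

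Mrpl19, the counterpart of bacterial L19, overlapped E16d at PN1d, but its PN7d arrays lay below those of both earlier ages, 0.51 under E16d on average, a fall past the test (adjusted p = 2.23e-05) that was -0.27 with the mean of the probes of Mrpl19. Mrps31, found only in mitochondria, fell by 0.32 (adjusted p = 0.000161) by PN7d, when its arrays lay below those of E16d and overlapped those of PN1d. Of the 35 genes lower at PN7d than at E16d, 16 had PN7d arrays that overlapped those of E16d, Mrpl14 and Mrps25 among them. Mrpl14, the counterpart of bacterial L14, fell by 0.37 (adjusted p = 0.0236) from E16d to PN7d, with 1 PN7d array, at 9.90, within the E16d range of 9.67 to 9.91. That call was lost without PN7d replicate 3 or 4, with the methods' t-test and with the adipocyte covariate. Mrps25, found only in mitochondria, fell by 0.28 (adjusted p = 0.014), its PN7d arrays ran from 8.41 to 9.09, and the call was lost with the methods' t-test.

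A few genes fell step by step. Mrpl44, Mrpl47 and Mrps33 were lower at both steps with both called, 3 of the 69 genes, against 9.4% of all genes tested. Mrpl44, which has a fold like that of the RNA-cutting enzyme RNase III and lies near the exit of the large subunit, read 8.79, 8.75, 8.72, 8.48 and 8.72 at E16d. It read 8.70, 8.53, 8.46, 8.36 and 8.26 at PN1d and 8.27, 8.21, 8.13, 7.91 and 8.17 at PN7d. It fell by 0.23 (adjusted p = 0.0341) and then by 0.32 (adjusted p = 0.00531). The first call was lost without E16d replicate 1, 2, 3 or 5 or PN1d replicate 3, 4 or 5, and the second with the adipocyte covariate. With no filter on dim probes or with the methods' t-test the first call of Mrpl44 was lost too. Mrps33, of the small subunit, fell by 0.33 and by 0.18, and the second call was lost without PN1d replicate 1, 2 or 4 or PN7d replicate 3, 4 or 5. That call was also lost with the adipocyte covariate, the methods' t-test, background correction or only the 2 ages compared. For Mrpl47 the second call (-0.18) was lost without PN1d replicate 2, 3, 4 or 5 or PN7d replicate 3 or 4. With the adipocyte covariate the second call of Mrpl47 was lost as well. Mrpl10, Mrpl17, Mrpl38, Mrpl39, Mrpl40 and Mrps2 were lower only over the whole interval, PN7d against E16d. The share of all genes with that pattern is not given here.

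**Figure D3:**
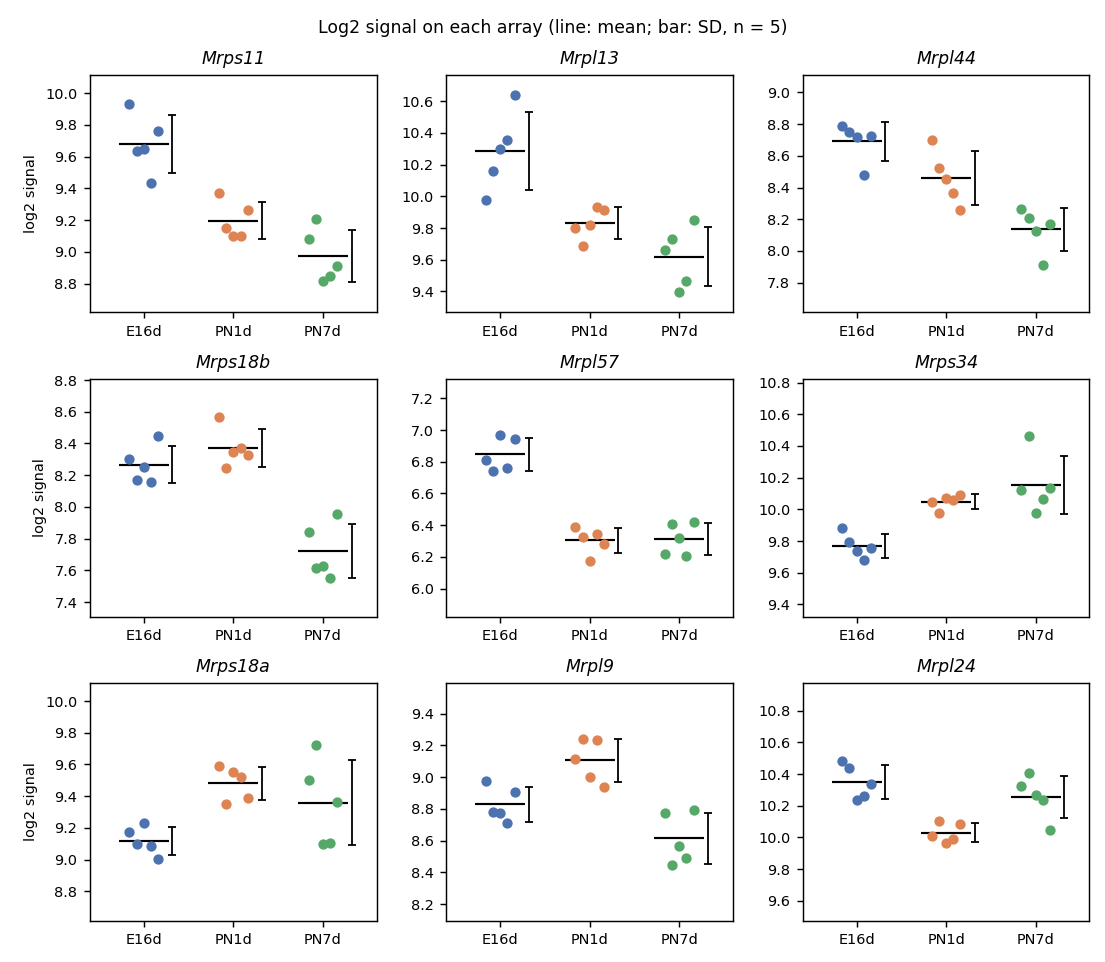
Log2 signal on each array for 9 genes, with the mean and SD of each age (n = 5) and every panel 1.5 log2 units high. Mrps11, Mrpl13 and Mrpl57 are lower on all postnatal arrays than on any E16d array, Mrps18b is lower on the PN7d arrays, Mrps34 is higher on all postnatal arrays, and Mrpl9 and Mrpl24 turn direction after PN1d.

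The genes that rose against E16d were mostly of the small subunit by name, 3 small and 1 large at PN1d and 2 and 0 at PN7d. By structure these were 2 and 2 at PN1d and 1 and 1 at PN7d. From PN1d to PN7d 1 small-subunit and 2 large-subunit genes rose. Mrps34, a small-subunit protein found only in mitochondria, read 9.88, 9.80, 9.74, 9.68 and 9.75 at E16d. It read 10.05, 9.97, 10.07, 10.06 and 10.09 at PN1d and 10.12, 10.47, 9.98, 10.07 and 10.13 at PN7d. All postnatal arrays lay above all E16d arrays. It rose by 0.28 (SE 0.073, adjusted p = 0.00464) at PN1d and by 0.38 (adjusted p = 0.000201), or 1.30-fold, at PN7d. This was the 1 gene of the 69 whose PN7d arrays all lay above the E16d arrays, against 25.3% of all genes. For 19 of the 69 they all lay below, a share near the 24.8% of all genes.

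The 3 mammalian relatives of bacterial S18 parted ways. Mrps18a, whose product sits in the large subunit, read 9.17, 9.10, 9.23, 9.08 and 9.00 at E16d and 9.59, 9.35, 9.56, 9.52 and 9.39 at PN1d. It rose by 0.36 (SE 0.10, adjusted p = 0.00704). At PN7d it read 9.50, 9.73, 9.10, 9.10 and 9.36, which overlapped E16d, and stood at 0.24 (adjusted p = 0.0452). That second call was lost in 9 of the 15 fits that left out 1 array (E16d replicates 1, 2, 4 and 5, PN1d replicates 3 and 4, PN7d replicates 1, 2 and 5), which makes 1 rather than 2 genes higher at PN7d than at E16d. Mrps18b fell by 0.55 (adjusted p = 2.01e-05) over the same interval. Mrps18c, the relative that takes the place of the bacterial protein, changed by -0.11 (adjusted p = 0.26) at PN1d and -0.07 (adjusted p = 0.437) at PN7d.

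Some genes turned direction after birth, a pattern whose share over all genes is not given here. Mrpl9, the counterpart of bacterial L9, read 8.98, 8.78, 8.78, 8.71 and 8.91 at E16d, 9.12, 9.24, 9.00, 9.23 and 8.94 at PN1d, and 8.78, 8.45, 8.57, 8.49 and 8.79 at PN7d. It rose by 0.28 (adjusted p = 0.0104) and then fell by 0.49 (SE 0.081, adjusted p = 0.000143), with every PN7d array below every PN1d array. Mrps23, a small-subunit protein found only in mitochondria, rose by 0.19 (adjusted p = 0.0101) and fell by 0.24 (adjusted p = 0.0027), and the PN1d arrays (9.71 to 9.85) overlapped neither E16d (9.49 to 9.63) nor PN7d (9.37 to 9.64). Mrpl24, which lies beside the exit of the tunnel for the new protein, went the other way. It fell by 0.32 (adjusted p = 0.000795) and then rose by 0.23 (adjusted p = 0.0106), from arrays at 10.24 to 10.48 through 9.97 to 10.10 and back to 10.05 to 10.41. The second step of Mrpl24 was not called with the adipocyte covariate.

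The other rises from PN1d to PN7d were Mrps24 (0.28, adjusted p = 0.0249), the counterpart of bacterial S3, and Mrpl37 (0.14, adjusted p = 0.0227). Without PN1d replicate 4, 1 of the 3 rises remained called. The remaining 23 tested genes had no call in any comparison. They are Mrpl4, Mrpl12, Mrpl16, Mrpl20, Mrpl22, Mrpl23, Mrpl28, Mrpl33, Mrpl34, Mrpl43, Mrpl48, Mrpl51, Mrpl58, Mrps5, Mrps10, Mrps12, Mrps16, Mrps18c, Mrps21, Mrps26, Mrps27, Mrps28 and Mrps35. Of these, 13 are of the large and 10 of the small subunit. The share of all genes with no call in any comparison is not given here. Mrpl58, the peptidyl-tRNA hydrolase that frees stalled ribosomes, changed by -0.01 at PN1d and -0.04 at PN7d (SE 0.080).

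Members were also counted by functional region of the ribosome. In each of 4 regions 3 genes were lower at PN7d than at E16d and 0 were higher, where 32.2% of all genes were lower, and with 5 to 7 genes a region the shares are not read against that background. At the base of the stalk, which recruits the translation factors, 3 of 5 genes were lower: Mrpl53 (-0.58), Mrpl11 (-0.46) and Mrpl10 (-0.32). Mrpl53, found only in mitochondria, read 10.77, 10.72, 10.71, 10.80 and 10.76 at E16d, 10.54, 10.52, 10.31, 10.24 and 10.27 at PN1d, and 10.29, 10.40, 10.25, 9.97 and 9.95 at PN7d. The E16d arrays of Mrpl53 were tight and lay above all the others (adjusted p = 0.00165 and 1.66e-05). Mrpl12, the stalk protein that also binds the mitochondrial RNA polymerase, changed by 0.17 (adjusted p = 0.129) and 0.08 (adjusted p = 0.444).

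Around the exit of the tunnel 3 of 6 tested genes were lower, Mrpl44 (-0.56), Mrpl47 (-0.40) and Mrpl17 (-0.40). The call for Mrpl17 was lost without E16d replicate 1 or 2 or PN7d replicate 3 or 4, and its PN7d arrays ran from 10.28 to 11.28. Mrpl45, which anchors the ribosome to the inner membrane, lay at or below the filter on average at each age. In the central protuberance, which faces the small subunit, 3 of 7 were lower: Mrpl18 (-0.46), Mrpl38 (-0.19) and Mrpl40 (-0.16). Mrpl18 read 8.63 to 8.89 at E16d and 8.09 to 8.52 at PN7d, with no overlap (adjusted p = 3.65e-05). The calls for Mrpl38 and Mrpl40 were lost without E16d replicate 1, for Mrpl38 also without PN7d replicate 5, and for Mrpl40 also without E16d replicate 3 or 5 or PN7d replicate 3 or 4.

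Along the path of mRNA and tRNA on the small subunit 3 of 6 were lower, Mrps11 (-0.71), Mrps7 (-0.31) and Mrps9 (-0.29). Mrps7, the counterpart of bacterial S7, read 8.80, 8.76, 8.77, 8.75 and 8.76 at E16d and 8.58, 8.53, 8.34, 8.35 and 8.49 at PN7d, without overlap (adjusted p = 0.000735). Genes with and without a bacterial counterpart had like counts at PN7d against E16d: 21 of 43 and 14 of 26 were lower, 1 of each was higher, and the medians were -0.19 and -0.16. The shares lower were 49% and 54%, against 32.2% of all genes. At PN1d against E16d, 13 of 43 and 8 of 26 were lower (30% and 31%, against 24.9% of all genes).

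Different probes of a gene often did not move alike. Of the 76 genes 20 had more than 1 probe, and for 19 of these at least 2 probes passed the filter. The brightest and another probe had opposite signs for 2, 5 and 6 of the 19 genes in the comparisons of PN1d with E16d, PN7d with E16d and PN7d with PN1d. Between E16d and PN7d the brightest probe called 10 of the 19 lower, of which 8 were also called lower by another probe and 2, Mrpl1 and Mrps11, were not. For 5 more genes, Mrpl37, Mrpl48, Mrpl51, Mrps5 and Mrps35, only a dimmer probe was called lower. No dimmer probe was called higher in any of the comparisons where its brightest probe was not.

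Mrpl48, in the central protuberance, had probes at -0.10 (adjusted p = 0.311), -0.35 (adjusted p = 0.00158) and -0.64 (adjusted p = 1.43e-05), from the brightest to the dimmest. Mrpl51 had 0.05 (adjusted p = 0.496) and -0.49 (adjusted p = 4.18e-06). Mrps5, the counterpart of bacterial S5, had -0.07 (adjusted p = 0.261) and -0.43 (adjusted p = 0.000194), and Mrps35 had 0.06 (adjusted p = 0.577) and -0.38 (adjusted p = 0.000249). These 4 genes are thus among those with no call by the brightest probe alone. For Mrpl37 the probes differed in sign in the one comparison where it was called, 0.14 and -0.13 (adjusted p = 0.118) from PN1d to PN7d. Probes of Mrps33, at -0.51 and -0.47, and of Mrps15, at -0.48 and -0.45, lay close together. With the mean of a gene's probes in place of the brightest, 39 genes were lower and 2 higher at PN7d than at E16d.

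**Figure D4:**
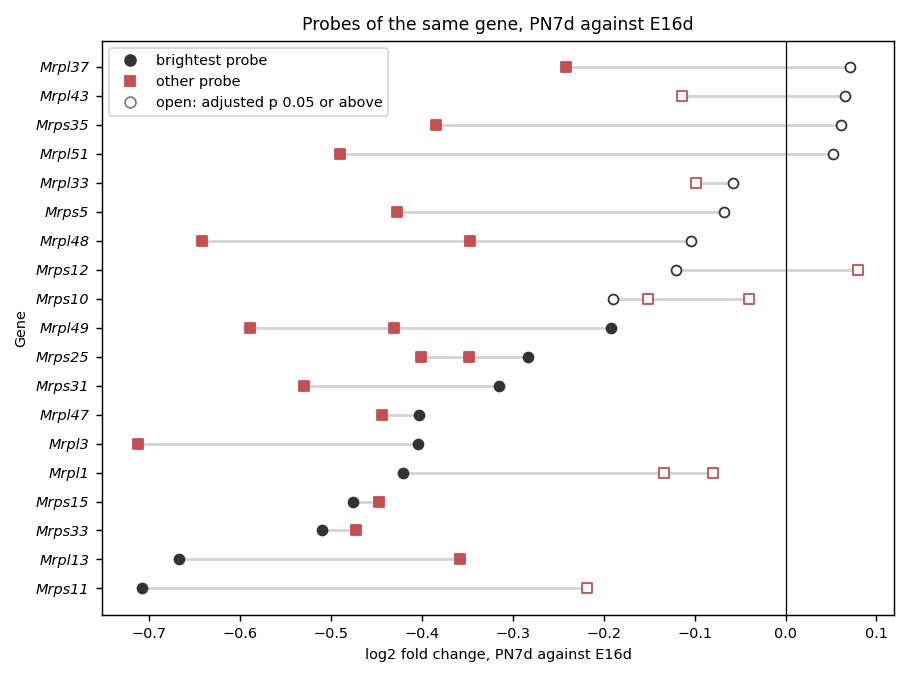
Log2 fold change at PN7d against E16d of every probe past the filter for the 19 genes with at least 2 such probes, the brightest as a circle and the others as squares, filled at an adjusted p under 0.05. For Mrpl37, Mrpl48, Mrpl51, Mrps5 and Mrps35 the circle is open and a square to its left is filled.

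The 7 untested genes lay at or below the filter in the mean of each age. They are Mrpl21, Mrpl32, Mrpl41, Mrpl45, Mrps14, Mrps22 and Mrps36. Mrpl21, for one, ran from 5.83 to 5.98 at E16d, 5.83 to 5.91 at PN1d and 5.80 to 5.93 at PN7d, near the lowest signal on the arrays, 5.56. At this brightness their values were not compared between ages. Mrps36 is now counted with the 2-oxoglutarate dehydrogenase complex rather than the ribosome.

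The respiratory chain, whose core subunits these ribosomes make, went the opposite way. The list holds nuclear genes for its subunits and those of the ATP synthase. By PN7d, 36 of 65 tested were higher than at E16d and 3 were lower, with a median of 0.21, where 2 and 35 of the 69 ribosomal genes were. The shares of the respiratory chain were 55.4% and 4.6%, against 32.3% and 32.2% of all genes. At PN1d against E16d, 18 were higher (27.7%, against 21.4% of all genes) and 0 lower (against 24.9%), with a median of 0.07. Cox8b (2.92) and Cox7a1 (1.27), subunits of the oxidase of heart, muscle and brown fat, had the largest rises and are also on the adipocyte list. With the adipocyte covariate Cox8b was at 1.52 and Cox7a1 at 0.76. Cox8b is itself part of that covariate, so its smaller value is partly built in. Without both genes 34 of 63 were higher. The falls were led by Atp5j (-0.27, but -0.14 with the mean of its probes) and Atp5e (-0.25), subunits of the ATP synthase. The call of Atp5e was lost without E16d replicate 2 or 5 or PN7d replicate 1, 3 or 4. With the adipocyte covariate 27 of 65 were higher and 0 lower at PN7d than at E16d, and 17 and 0 at PN1d. Their median at PN7d against E16d was 0.204 with the covariate and 0.208 without it. In those fits 26.7% and 26.6% of all genes were higher and lower at PN7d, and 21.2% and 24.8% at PN1d.

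Genes for the cytosolic ribosome fell as the mitochondrial ones did. By PN7d 29 of 43 tested were lower and 3 higher (67.4% and 7.0%, against 32.2% and 32.3% of all genes), with a median of -0.23. At PN1d 14 were lower (32.6%, against 24.9% of all genes) and 0 higher (against 21.4%), with a median of -0.05. Rps24 (-1.89) and Rpl13a (-1.83) had the largest falls, and Rps18 (0.25) and Rps20 (0.20) the largest rises. Many copies of cytosolic ribosomal genes lie in the genome as pseudogenes, so their probes may read more than 1 transcript. The array mean against E16d was -0.15 to -0.12 at PN1d and -0.44 to -0.32 at PN7d, and its order among the PN7d arrays was not that of the mitochondrial genes.

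**Figure D5:**
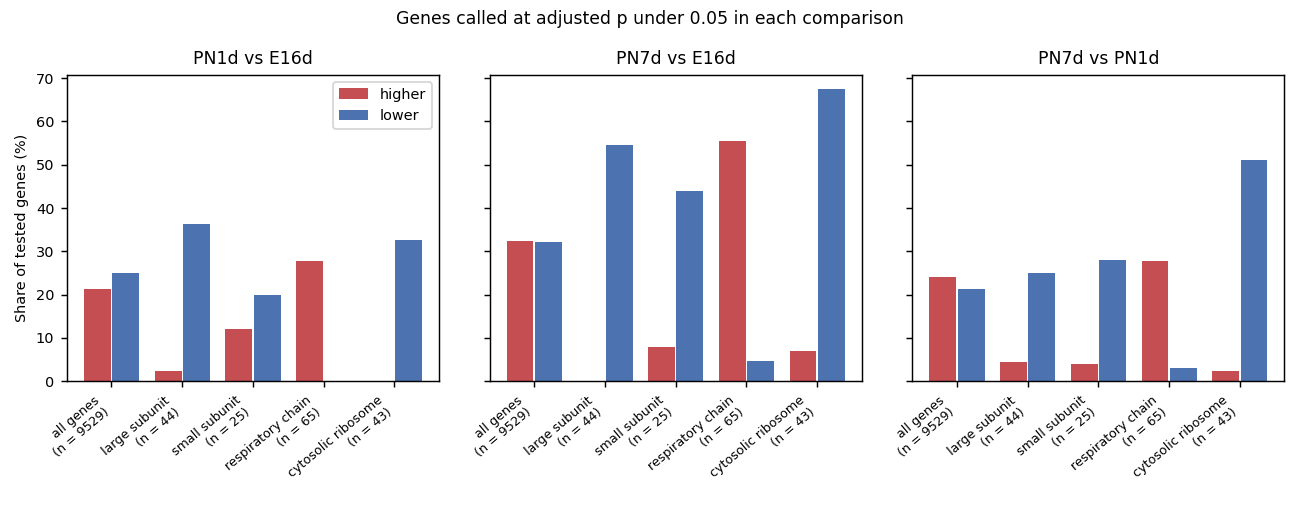
Share of tested genes called higher (red) and lower (blue) in each comparison, for all genes and for 4 groups, with the number tested. At PN7d against E16d 54.5% of large-subunit and 44% of small-subunit genes were lower, against 32.2% of all genes, while 55.4% of respiratory chain genes were higher.

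Other genes of mitochondrial gene expression were mixed. At PN7d against E16d 32.3% of all genes were higher and 32.2% lower. With 13 to 17 genes a list, the shares are not read against that background. Of 17 tested assembly factors of the mitochondrial ribosome, 3 were higher and 6 lower at PN7d than at E16d (18% and 35%). Mpv17l2 (0.45) and Nsun4 (0.28), the latter a methyltransferase of the ribosomal RNA, rose, and Gtpbp10 (-0.59), a GTPase of large-subunit assembly, and Mterf3 (-0.41) fell. Gtpbp10 was at -0.90 with background correction and Mterf3 at -0.21 with the mean of its probes. Of 13 translation factors and membrane insertion genes, 1 was higher and 6 lower (7.7% and 46%). Mtif3 (0.31), an initiation factor, rose. Mrrf (-0.68), the ribosome recycling factor, and Oxa1l (-0.37), which inserts new proteins into the inner membrane, fell. Of 13 mitochondrial aminoacyl-tRNA synthetases, which load tRNAs, 5 were higher and 1 lower (38% and 7.7%). Vars2 (0.38) and Fars2 (0.30) were up and Ears2 (-0.18) down.

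Of 14 genes for mitochondrial DNA upkeep and transcription and their regulators, 5 were higher and 5 lower. That is 36% each way, near the 32.3% and 32.2% of all genes. Tfam, which packages mitochondrial DNA, fell by 0.54 (SE 0.073, adjusted p = 5.67e-06). Nrf1, which encodes the factor whose motif is shown above, fell by 0.57 (adjusted p = 2.32e-06). The coactivators Ppargc1a and Ppargc1b, known for raising mitochondrial gene expression, rose by 0.64 (adjusted p = 0.000529) and 0.50 (adjusted p = 0.000179), and Ppargc1a by 0.31 with the mean of its probes. For Tfam and Nrf1 all PN7d arrays lay below the E16d arrays, and for both coactivators above. Chchd1, a small-subunit protein of the ribosome under another name, fell by 0.32 (adjusted p = 0.000257) at PN1d and by 0.59 (adjusted p = 1.79e-07) at PN7d, and was the 1 gene lower of 3 tested under such names.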

How the data were processed

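RNA was extracted with Trizol, labelled with biotin and hybridized to 15 arrays, 5 for each of E16d, PN1d and PN7d, grouped by the deposited labels. The authors quantile-normalized the scanned intensities, and the deposited table gives them on a log2 scale (5.56 to 13.8; the base is taken from the values, and no background subtraction is stated). A second table names its 30 columns by numbers tied to no label and was not used. Probes were named through the platform annotation. Probes whose mean at no age exceeded the median of all values (6.22, an intensity of 74.5) were left out. The brightest probe of a gene was fitted with the 3 ages in limma 3.58.1 (R 4.3.3, lmFit and eBayes), with Benjamini-Hochberg adjustment over 9529 genes and a threshold of 0.05. All fold changes are differences of mean log2 signal, which understate the change of dim genes since background remains in the signal. Second probes were taken from the same fit over all named probes past the filter. Precision is limited by the number of arrays, and a gene's median SD over the 5 arrays was 0.0895, 0.108 and 0.17 for the tested members and 0.0816, 0.0993 and 0.122 for all genes at E16d, PN1d and PN7d.

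The members, gene lists and tests were chosen with earlier results of these data known. Genes named are the 4 largest increases and decreases per subunit and comparison past the test, genes that turn direction, genes with probes of opposite sign in a called comparison, genes at or below the filter, called genes of the 4 regions, and the 2 largest changes each way of each other list. Others, such as Mrpl1, Mrpl12, Mrpl19, Mrpl48 and Mrps18c, were named after their values were seen. Simulated data for 9529 genes took the E16d means, with independent noise of the same SD for a gene at every age. Only 67, 67 and 66 genes were changed at PN7d, by 1.2-fold, 1.5-fold and 2-fold. Against E16d 49.3%, 92.5% and 100% of these were called, with 6.4% of calls false. In the real data 64.5% of genes were called and the spread was larger at PN7d, so these rates need not hold there. Alternatives covered the filter, probes, variance model, arrays, replicate block, the methods' t-test, background, centring, the adipocyte level and each array left out. Promoters are from RefSeq. Figures were drawn with matplotlib.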

Additional observations from a re-analysis of the deposited data

Results flagged for a closer look

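Of 93 sets of 5 arrays of 1 age checked for the 29 members named by rule and the means of both subunits, 2 had an array standing apart, its gap to the nearest other array exceeding 0.71 of the range of the 5. Chance alone marks about 1 in 20. Mrps15 was at 9.7629 on E16d replicate 5, where the next highest E16d array was at 9.50. Mrpl44 was at 8.4801 on E16d replicate 4, where the next lowest was at 8.72.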

How the results depend on the processing

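The alternatives were run for the 69 tested members and 23 genes named from other lists. None of their 132 calls changed direction: 257 alternative values lost the call and 3031 kept it. Over 144 comparisons without a call 101 values gained one in the same direction, and Mrpl51 at PN7d against E16d, 0.05 by its brightest probe, was -0.219 (adjusted p = 0.00181) with the mean of its probes. Medians of both subunits moved by less than the spread between arrays. At PN1d against E16d the 4 higher genes became 8 with only the 2 ages compared and 7 with the methods' t-test. At PN7d against E16d the 2 higher genes became 1 with no filter, only the 2 ages, the replicate block, the methods' t-test, centred arrays or the adipocyte covariate. At PN7d against PN1d the 3 higher genes became 1 with only the 2 ages or the adipocyte covariate, and the 18 lower genes became 9 with the methods' t-test and 8 with the covariate (large subunit, 11 to 6 and 5; small subunit, 7 to 3 and 3, and 4 with only the 2 ages). With the covariate, respiratory chain genes higher at PN7d than at PN1d fell from 18 to 5, and lower ones from 2 to 0. Over all genes these shares went from 24.1% to 16.7% and from 21.2% to 14.6%. The respiratory chain median at PN7d against PN1d was 0.079 without the covariate and 0.083 with it. The causes were not tested.

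Leaving out 1 array gave 4 to 5 genes higher and 14 to 24 lower at PN1d against E16d (large 10 to 18, small 3 to 6 lower), 1 to 2 higher and 26 to 42 lower at PN7d against E16d (large 17 to 30, small 9 to 12), and 1 to 4 higher and 10 to 22 lower at PN7d against PN1d (large 6 to 13, small 4 to 9). Replicate numbers are only shared labels: same-numbered arrays correlated in their deviations by -0.23 to 0.21. With the number as a block, 36 genes were lower at PN7d than at E16d, 22 lower at PN1d, and 21 lower from PN1d to PN7d. Centring arrays on their medians gave 39 genes lower at PN7d than at E16d. Background correction was run on the deposited values only, since the columns of the raw signals name no sample. Genes near 6.22 on the log2 scale have little room to show a fall.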
